A study of Mus musculus with 12 samples.

Results

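RNA-seq profiles of CD8.2 T cells, the cytotoxic lineage of CD8 Dual mice, were compared with those of CD8+ T cells from B6 mice, the same lineage in the normal strain, both with CD8 encoded by the normal *Cd8* loci. The samples were chosen by their names in the count table, 3 containing 8in4-8a2 and 3 containing B6-CD8, which gave 6 of the 12 samples of the study. In CD8 Dual (8in4) mice, homozygous for the change, altered *Cd4* loci no longer encode CD4 and are a source of CD8α.1 and CD8β. CD8α.2 comes from the unaltered *Cd8* loci of these mice. B6 (C57BL/6) mice carried both co-receptor genes unaltered. The labels give every sample as male and aged 6 to 10 weeks, whereas the reporting summary of the study names mice of either sex. Cells were sorted from LNs as CD62L+ and TCRβ+ (antibody H57), pooled, and used for total RNA, and the methods of the study add a CD44- gate that the labels do not name. The comparison addresses which programs of the cytotoxic lineage are weaker or stronger in a mouse whose other T cell lineage also expresses CD8. The total count was 23466467, 18667474 and 37110502 in CD8.2 replicates 1, 2 and 3, and 24418062, 27637080 and 20386247 in B6 CD8+ replicates 1, 2 and 3. Levels are given as CPM (counts scaled to library size, with TMM normalization), always in the order of replicates 1, 2 and 3. The smallest level that 3 counts can show lay between 0.0875 and 0.167 CPM in these samples, and this floor covers counting error only. Nothing in the labels says that the 3 samples of a group came from separate animals, so *P* values measure only the spread between these samples.

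Cytotoxic T cells carry CD8, recognize peptides on MHC class I and kill with granules that hold perforin and granzymes. The T-box factors T-bet and Eomes drive the genes for such effector molecules and for CD122, the IL-2 and IL-15 receptor β-chain, by which CD8+ T cells respond to these cytokines. Cells that have taken on a memory phenotype, after antigen or through IL-4 in the thymus or homeostatic cytokines in the periphery, carry Ly6C, CD122, inflammatory chemokine receptors and lectin-like NK cell receptors, while naive cells home to LNs and carry few of these.

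The labels held against the lineage markers. *Cd8a* was at 1430, 1490 and 1460 CPM in CD8.2 and 1390, 1480 and 1400 CPM in B6 CD8+ T cells, and *Cd8b1* at 2000, 2000 and 2010 CPM against 2230, 2340 and 2130 CPM. *Cd8a* overlapped between the groups and *Cd8b1* did not, and neither was called by edgeR (Benjamini-Hochberg adjusted *P* = 0.867 and 0.367), though *Cd8b1* was with only the 6 samples compared in the fit (0.0432). The counts do not tell which locus or allele these reads came from. The CD3 subunit genes *Cd3d* (967 and 927 CPM on average) and *Cd3e* (309 and 343 CPM) had overlapping groups. *Runx3*, the factor of the cytotoxic lineage, was at 70.6, 74.7 and 77.3 CPM in CD8.2 and 105, 102 and 97.5 CPM in B6 CD8+ T cells. The *Runx3* groups did not overlap, and the log2 difference of −0.45 ± 0.137 (SE) did not pass the test (adjusted *P* = 0.0556). *Runx3* was called in 8 of 21 alternatives: by the DESeq2 Wald test (adjusted *P* = 0.0196), by limma voom (0.045), without the filter on low counts (0.000205), with only the 6 samples (0.000451) and without B6 CD4+ replicate 1 (0.0338) or 3 (0.0332) or CD8.1 replicate 1 (0.00765) or 3 (0.0321). *Cd4* was low, at 1.79, 1.11 and 1.52 CPM in CD8.2 and 0.287, 0.109 and 0.337 CPM in B6 CD8+ T cells. *Zbtb7b*, which encodes the helper lineage factor ThPOK, was at 2, 2.11 and 1.6 CPM against 1.19, 0.691 and 0.914 CPM. *Cd4* (log2 difference 2.65, adjusted *P* = 6.43e-05) and *Zbtb7b* (1.01, adjusted *P* = 0.0335) were both called higher in CD8.2 T cells. Reads of *Cd4* in CD8.2 T cells come from altered loci, so neither *Cd4* nor a sum that contains it compares the same gene between strains. The *Zbtb7b* call was lost without B6 CD8+ replicate 2 or 3 or without CD8.2 replicate 1 or 2 (adjusted *P* 0.0713 to 0.149) and by limma voom (0.191). The 3 helper markers *Cd4*, *Zbtb7b* and *Cd40lg* summed to 4.98, 4.72 and 4.55 CPM against 2.46, 1.78 and 1.92 CPM, and their part in the results that follow was not tested.

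Across the 6 samples, the first principal component held 45.1% of the variance and the second 20.2%. CD8.2 samples lay at 21.6, 27.2 and 20.4 on the first component and B6 CD8+ samples at −20.2, −22.6 and −26.3. On the second component, B6 CD8+ replicate 3 stood apart at −28.4, against 20 and 10.5 for the other B6 CD8+ samples. CD8.2 replicate 3 stood apart by *Gm42418*, a transcript with ribosomal RNA sequence that took 3.14% of its counts. Of the 13118 genes tested of 49585, 431 (3.29%) were higher and 611 (4.66%) lower in CD8.2 T cells at an adjusted *P* under 0.05, which is what "called" means below. The median fold change was 1.38 among the higher and 1.52 among the lower genes, and 83 and 139 of them passed 2-fold. Of the higher genes 426, and of the lower genes 609, had 3 CD8.2 samples that did not overlap the 3 B6 CD8+ samples, as did 2323 higher and 2444 lower genes of all those tested. By edgeR, 1466 genes were higher and 1642 lower at an unadjusted *P* under 0.05, the background for such counts in the lists below. The study defines DEGs by a fold change above 5 and a *P* under 0.05, and names no adjustment. With *P* taken as unadjusted, 41 genes (0.313%) were higher and 35 (0.267%) lower, of which 22 and 31 also passed the adjusted *P*. Counts fell when 1 of the 6 samples was left out. Without B6 CD8+ replicate 1 there were 172 higher and 304 lower genes, without replicate 2 163 and 268, and without replicate 3 299 and 503. Without CD8.2 replicate 1 there were 226 and 328, without replicate 2 163 and 278, and without replicate 3 194 and 246. The counts rose to 907 and 1006 without CD8.1 replicate 1, a helper lineage sample of the shared fit. With only the 6 samples in the fit they were 1129 and 1386, and without the filter on low counts 676 and 917. The cause of these rises was not tested. None of the called genes, higher or lower, turned its sign under any setting tried.

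*Tbx21*, *Ly6c2* and *Il2rb*, the markers of the comparison, were all lower in CD8.2 T cells. *Tbx21* encodes T-bet and lies on chromosome 11 from base 97098071 to 97115331 of GRCm38 (ENSMUSG00000001444.2, GENCODE M21). It was at 14.3, 13.8 and 15.5 CPM in CD8.2 and at 31, 30.7 and 37.4 CPM in B6 CD8+ T cells. The groups were separated by a wide gap and the CD8.2 samples lay close together. *Tbx21* fell by 1.18 ± 0.145 (SE) on the log2 scale, a 2.26-fold difference (adjusted *P* = 0.000236). *Ly6c2* encodes the surface protein Ly6C of memory CD8+ T cells (ENSMUSG00000022584.14, chromosome 15, bases 75108158 to 75111970). Its level was 408, 401 and 411 CPM in CD8.2 and 650, 714 and 930 CPM in B6 CD8+ T cells. The groups did not overlap, and B6 CD8+ replicate 3 was the highest. *Ly6c2* was 1.88-fold lower (log2 difference −0.91 ± 0.121, adjusted *P* = 0.000402). Its near-identical neighbor *Ly6c1* was at 0.681 to 2.06 CPM in the 6 samples, and how reads were split between them is uncertain. *Il2rb* encodes CD122 (ENSMUSG00000068227.8, chromosome 15, bases 78479256 to 78495271). It was at 303, 332 and 313 CPM in CD8.2 and 473, 454 and 493 CPM in B6 CD8+ T cells. The groups did not overlap and each varied little. *Il2rb* was 1.5-fold lower (log2 difference −0.58 ± 0.0935, adjusted *P* = 0.00153). Bulk RNA cannot tell fewer cells of a type, such as memory phenotype cells within the sort, from less RNA per cell. Which of these applied was not tested.

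**Figure D1:**
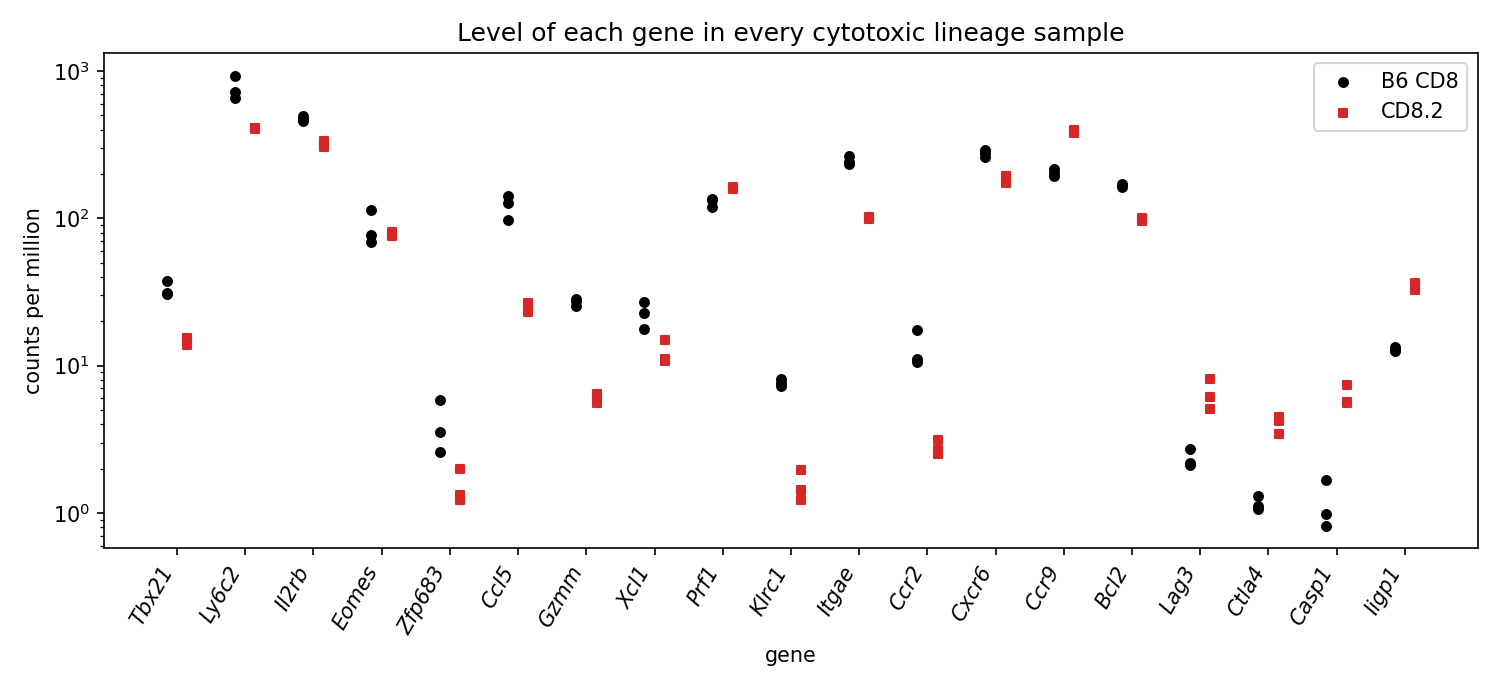
Level of 19 genes in the 3 CD8.2 samples (red squares) and the 3 B6 CD8+ samples (black circles), in CPM on a log axis. The markers, effector and memory genes on the left lie lower in CD8.2 T cells, apart from *Eomes*, whose groups overlap, and *Prf1*, while *Ccr9*, *Lag3*, *Ctla4*, *Casp1* and *Iigp1* lie higher.

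Among effector transcription factors, 17 of the 19 genes listed were tested, 2 were higher and 4 lower, and their median log2 difference was 0.00 against −0.004 for all tested genes (−0.05 without B6 CD8+ replicate 1, −0.09 without CD8.2 replicate 2). All tested genes gave 3.29% higher and 4.66% lower. *Eomes*, the other T-box factor of cytotoxic cells, was at 81, 78.1 and 75.6 CPM in CD8.2 and 76.7, 69.4 and 113 CPM in B6 CD8+ T cells. The groups overlapped, and *Eomes* did not pass the test (log2 difference −0.14, adjusted *P* = 0.702). Without B6 CD8+ replicate 3, in which it was highest, its difference was 0.08. *Zfp683*, which encodes Hobit, a factor of tissue-resident cells, was at 1.32, 2 and 1.22 CPM against 3.56, 2.58 and 5.82 CPM, without overlap (log2 difference −1.41, adjusted *P* = 0.0228). *Ikzf3*, which encodes the Ikaros family factor Aiolos, was at 114, 110 and 110 CPM against 159, 157 and 165 CPM (−0.53, adjusted *P* = 0.00237). *Hopx*, a homeodomain cofactor of effector and memory cells, was at 54.5, 54.1 and 53.6 CPM against 66.9, 71.8 and 75.3 CPM (−0.40, adjusted *P* = 0.0264), and the antisense gene *Hopxos* overlaps it, which leaves its reads uncertain where counting strand is not stated. In the other direction, *Irf4*, a factor induced by TCR signals, was at 15, 19.8 and 16.6 CPM in CD8.2 and 7.53, 7.71 and 10.7 CPM in B6 CD8+ T cells, without overlap, a rise of 1.98-fold (adjusted *P* = 0.00241). *Prdm1*, which encodes Blimp-1, was at 1.62, 2.89 and 2.45 CPM against 0.819, 1.31 and 0.866 CPM, 2.28-fold higher (adjusted *P* = 0.011). The *Zfp683* call was lost without B6 CD8+ replicate 1 or 3 or CD8.2 replicate 1 or 3 (adjusted *P* 0.0534 to 0.115), the *Hopx* call without any 1 of the 6 samples (0.0516 to 0.106), and the *Prdm1* call without B6 CD8+ replicate 1 or CD8.2 replicate 2 or 3 (0.0531 to 0.061). The list had 2 lower members without B6 CD8+ replicate 1 or 3 or CD8.2 replicate 1 or 3, and 1 higher member without B6 CD8+ replicate 1 or CD8.2 replicate 2 or 3. The calls of *Tbx21*, *Ikzf3* and *Irf4* held under every setting.

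All 40 memory phenotype genes were tested, 22 were lower and 0 higher in CD8.2 T cells, against 4.66% and 3.29% of all tested genes, and their median log2 difference was −0.63. The list holds the markers *Tbx21*, *Ly6c2* and *Il2rb*, and some of its genes are counted again in other lists. It was written with earlier results of these data known, so its counts are not independent of them. edgeR gave 30 members an unadjusted *P* under 0.05, and 0 were higher by limma voom and 1 by the DESeq2 Wald test, which called 25 and 23 lower. Leaving out single CD8.2 or B6 CD8+ samples left 15 to 20 lower members, and 1 was higher without CD8.1 replicate 1. With only the 6 samples in the fit, 2 were higher and 27 lower. Summed over the list, the level was 4330, 4480 and 4390 CPM in CD8.2 and 5450, 5710 and 6200 CPM in B6 CD8+ T cells. No B6 CD8+ sum reached down to a CD8.2 sum, and B6 CD8+ replicate 3 was again highest. *Il18rap*, a chain of the IL-18 receptor, was at 26.1, 26.8 and 23.7 CPM against 43.4, 47 and 81.1 CPM (log2 difference −1.16 ± 0.238, adjusted *P* = 0.0082). *Slamf7*, a receptor of the SLAM family, was at 8.34, 11.8 and 8.08 CPM against 19.9, 19.5 and 32.8 CPM (−1.36 ± 0.208, adjusted *P* = 0.00101). In both genes the groups did not overlap and B6 CD8+ replicate 3 lay well above the other B6 samples. *Ctla2a*, a cathepsin inhibitor of activated T cells, was at 27.1, 28.5 and 24.2 CPM against 48.5, 56.5 and 68.5 CPM (−1.12, adjusted *P* = 0.000931). *Ahnak*, a large scaffold protein, was at 49.3, 40.8 and 41.2 CPM against 88.7, 107 and 78 CPM (−1.06, adjusted *P* = 0.000305). *Plek*, a substrate of protein kinase C, was at 21.1, 22.2 and 19.1 CPM against 40.8, 39.2 and 47.8 CPM (−1.04, adjusted *P* = 0.00118). These 3 genes had no overlap, and replicate 3 was highest for *Ctla2a* and *Plek* but lowest for *Ahnak* among the B6 CD8+ samples. The galectin gene *Lgals1* (−0.68), the calcium-binding *S100a6* (−0.83), *Vim* of the intermediate filaments (−0.31) and *Samd3* (−0.77) were also lower. Each of these 4 lost its call without some samples: *Vim* without B6 CD8+ replicate 2 or CD8.2 replicate 2 or 3 (adjusted *P* 0.0514 to 0.091), *Samd3* without B6 CD8+ replicate 3 or any CD8.2 sample (0.073 to 0.0989), *Lgals1* without B6 CD8+ replicate 2 or 3 or any CD8.2 sample (0.0621 to 0.136), and *S100a6* without B6 CD8+ replicate 1 or 2 or any CD8.2 sample (0.0518 to 0.127). *Cd44*, the adhesion receptor by which memory cells are often told from naive ones, was at 49.5, 60.1 and 55.9 CPM in CD8.2 and 42.4, 49.7 and 61 CPM in B6 CD8+ T cells. Its groups overlapped and it was not called (log2 difference 0.11, adjusted *P* = 0.612). Without B6 CD8+ replicate 1 its difference was −0.01. The chemokine receptor gene *Cxcr3* was not called either (−0.12, adjusted *P* = 0.63).

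**Figure D2:**
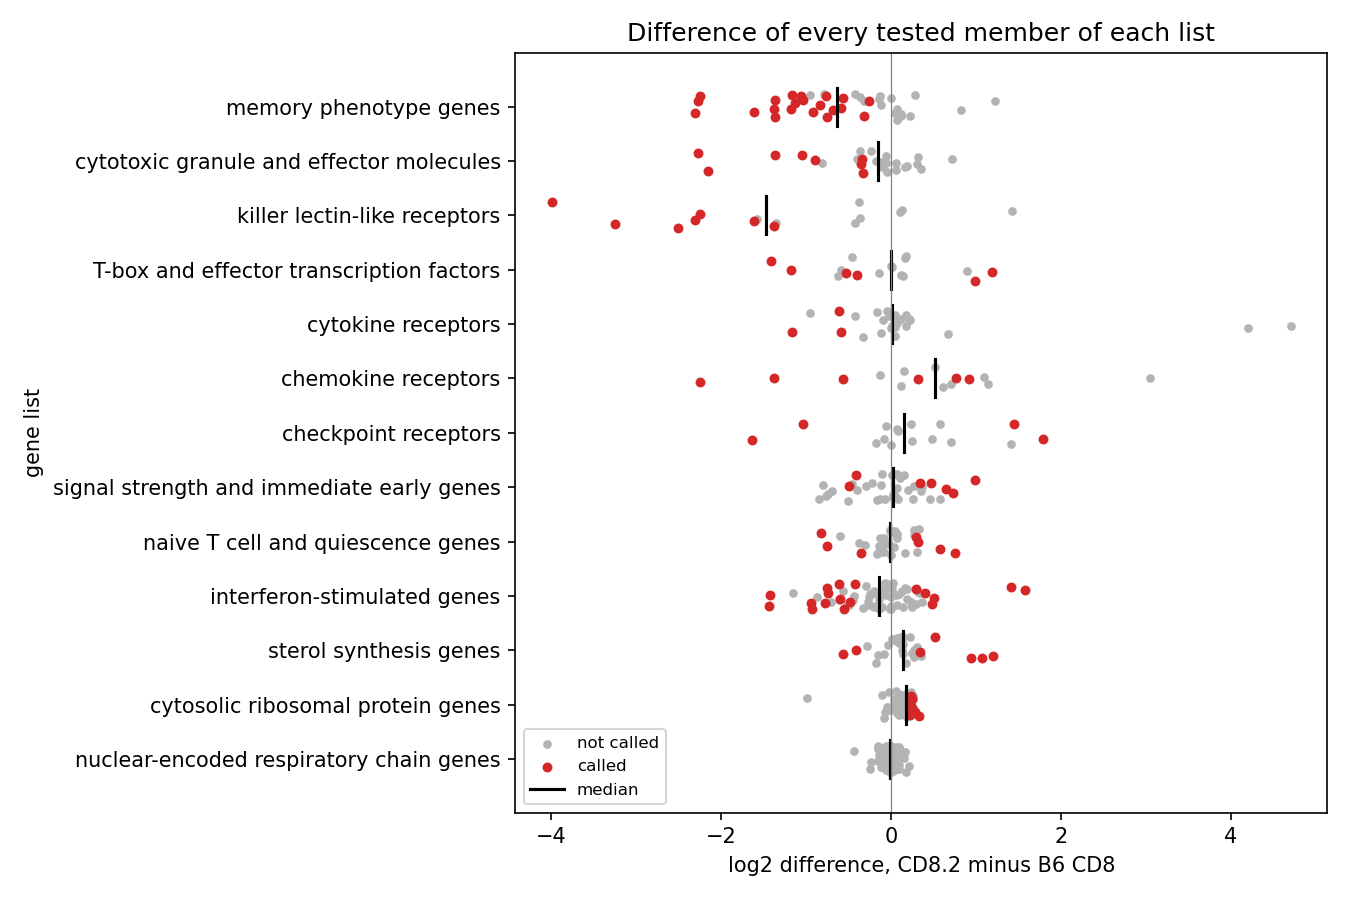
Log2 difference of CD8.2 minus B6 CD8+ T cells for each tested member of 13 gene lists, with called genes in red, others in gray and the list's median as a black line. *Klrc2*, with at most 1 count in CD8.2 samples, is not drawn but enters the medians; the medians of memory phenotype genes (−0.63) and killer lectin-like receptors (−1.47) lie farthest to the left and that of chemokine receptors (0.52; 0.29 without CD8.2 replicate 3) to the right.

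Of 26 cytokine receptor genes tested of 27, 3 were lower (*Il2rb*, *Il18rap* and *Il6ra*) and 0 higher (4.66% and 3.29% of all tested genes), with a median log2 difference of 0.01. Of the 26, 10 had an unadjusted *P* under 0.05 by edgeR, against 1466 higher and 1642 lower of the 13118 genes tested. The DESeq2 Wald test called 3 of these receptor genes higher and limma voom 0. Without CD8.1 replicate 1, 2 were higher and 5 lower, without B6 CD4+ replicate 3 2 were higher, and without B6 CD4+ replicate 1 1 was. With only the 6 samples in the fit, 2 were higher and 6 lower, and without the filter 3 and 4. *Il6ra*, the IL-6 receptor chain of naive cells, was at 135, 113 and 137 CPM against 210, 206 and 171 CPM, without overlap (−0.61, adjusted *P* = 0.00487). *Il2rg*, the chain that CD122 pairs with, was at 374, 378 and 374 CPM against 410, 427 and 423 CPM without overlap and was not called (−0.16, adjusted *P* = 0.393; 0.028 with only the 6 samples, 0.0403 without CD8.1 replicate 1). None of the 23 STAT and SOCS genes, which carry and restrain signals from these receptors, was called by edgeR; 7 had an unadjusted *P* under 0.05, limma voom called 0 and the DESeq2 Wald test 1 in each direction. Without CD8.1 replicate 1, 3 of them were called lower. With only the 6 samples in the fit, 1 was higher and 4 lower of 22, without the filter 1 each way, and with a replicate block 1 was higher. The STAT5 target *Cish* was at 3.96, 4.11 and 3.91 CPM against 5.81, 3.85 and 4.57 CPM, with overlap (−0.25, adjusted *P* = 0.317). *Socs3*, at 63.3, 76.5 and 65.8 CPM against 56.9, 55.3 and 37.4 CPM, was separated but not called (0.45, adjusted *P* = 0.0828), and was called by the DESeq2 Wald test (0.0418), without the filter (0.000146), with only the 6 samples (0.0291) and with a replicate block (0.0436). In the Ly6 family, 7 of 17 genes were tested, with *Ly6c2* and *Ly6g5b* lower and *Ly6k* higher, against 4.66% and 3.29% of all tested genes. *Ly6c2* is also a marker of the comparison. *Ly6k* (0.90) lost its call without B6 CD8+ replicate 1 or 3 or any CD8.2 sample (adjusted *P* 0.0911 to 0.168), and *Ly6g5b* (−1.34) without any 1 of the 6 samples (0.0743 to 0.178) and with a replicate block (0.0611). Without any 1 of the CD8.1 samples, without the filter, by the DESeq2 Wald test or with only the 6 samples, 2 Ly6 genes were higher.

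Of the cytotoxic granule and effector molecules, 26 of 29 were tested and 8 were lower, with a median log2 difference of −0.15 (−0.23 without B6 CD8+ replicate 1, −0.25 without replicate 2). Over all tested genes, 3.29% were higher and 4.66% lower. edgeR called 0 higher, 14 had an unadjusted *P* under 0.05, limma voom called 0 higher and 9 lower, and the DESeq2 Wald test 1 and 8. *Ccl5* encodes the chemokine RANTES, stored in and released by memory CD8+ T cells (ENSMUSG00000035042.2, chromosome 11, bases 83525778 to 83530518). It was at 26.6, 23.2 and 25.5 CPM in CD8.2 and 126, 141 and 97.8 CPM in B6 CD8+ T cells. The highest CD8.2 sample stayed far under the lowest B6 sample. *Ccl5* was 4.83-fold lower (log2 difference −2.27 ± 0.149, adjusted *P* = 6.41e-07). *Gzmm*, the granule protease granzyme M (ENSMUSG00000054206.2, chromosome 10, bases 79689020 to 79695261), was at 6.26, 6.45 and 5.6 CPM against 25.5, 27.4 and 28.4 CPM. Both groups were tight and did not overlap, and *Gzmm* was 4.46-fold lower (−2.16 ± 0.131, adjusted *P* = 5.1e-07). *Xcl1*, a chemokine for cross-presenting dendritic cells, was at 11, 14.8 and 10.7 CPM against 17.6, 22.8 and 26.9 CPM (−0.89, adjusted *P* = 0.00907). *Fasl*, the death ligand, was at 0.724, 1.06 and 0.437 CPM against 2.09, 1.71 and 1.59 CPM (−1.36, adjusted *P* = 0.0114). Neither of the last pair overlapped. *Ctsw* (−0.36), a cathepsin of cytotoxic cells, and the granule docking genes *Unc13d* (−0.34) and *Stxbp2* (−0.33) fell less, and the chemokine gene *Ccl4* (log2 difference −1.05) was called at an adjusted *P* of 0.0489. The pore-forming *Prf1* did not follow: it was at 160, 163 and 159 CPM in CD8.2 and 134, 133 and 120 CPM in B6 CD8+ T cells. Its groups did not overlap, with CD8.2 T cells higher, but the difference was not called (0.32 ± 0.162, adjusted *P* = 0.256; 0.014 without the filter, 0.00316 with only the 6 samples). *Nkg7*, a granule membrane protein, was at 371, 434 and 417 CPM against 494, 532 and 550 CPM, separated but not called (−0.37, adjusted *P* = 0.133), and was called by limma voom (0.028), without the filter (0.00175), with only the 6 samples (0.00259) and without B6 CD4+ replicate 3 (0.0217). *Gzmb* was at 1.02, 1.06 and 0.758 CPM against 0.983, 1.67 and 2.26 CPM, with overlap (adjusted *P* = 0.184). Without CD8.2 replicate 3, 2 members were called lower, without CD8.2 replicate 2 4, and without B6 CD8+ replicate 1 or 2 5 each. Without CD8.1 replicate 1, 3 were higher, and without B6 CD4+ replicate 3 1 was. With only the 6 samples in the fit, 4 were higher and 9 lower, and without the filter 2 and 9. Calls lost with single samples left out were that of *Xcl1* without CD8.2 replicate 3 (adjusted *P* = 0.0576), of *Fasl* without B6 CD8+ replicate 1 (0.0533) or CD8.2 replicate 3 (0.0773), of *Ctsw* without B6 CD8+ replicate 3 or any CD8.2 sample (0.059 to 0.104), of *Unc13d* without B6 CD8+ replicate 1 or 2 or CD8.2 replicate 2 or 3 (0.0561 to 0.0877), of *Stxbp2* without B6 CD8+ replicate 2 or CD8.2 replicate 2 or 3 (0.0514 to 0.101), and of *Ccl4* without any 1 of the 6 or CD8.1 replicate 2 or 3 (0.0509 to 0.203). *Ccl4* also lost its call with a replicate block (adjusted *P* = 0.074) and without receptor segments (0.05). The calls of *Ccl5* and *Gzmm* held under every setting.

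Killer lectin-like receptors are NK cell receptors for MHC class I and related ligands that memory phenotype CD8+ T cells also carry. Of 30 genes, 16 were tested, 8 were lower and 0 higher, against 4.66% and 3.29% of all tested genes. Of the 16, edgeR gave 11 an unadjusted *P* under 0.05, and limma voom and the DESeq2 Wald test called 0 higher. The median log2 difference was −1.47. The other 14 did not pass the filter on low counts, and several tested members were near the floor in CD8.2 but not in B6 CD8+ T cells, so the count and the median cover only genes expressed enough to pass, some of them by their B6 CD8+ level. Without the filter 29 had a value, 0 were higher and 11 lower (median −1.37); with a mean of at least 1 CPM, 10 were tested and 6 lower (−1.93). *Klrc1*, which encodes NKG2A (ENSMUSG00000030167.15, chromosome 6, bases 129666015 to 129678973), was at 1.96, 1.22 and 1.43 CPM in CD8.2 and 7.57, 8.14 and 7.26 CPM in B6 CD8+ T cells. The groups did not overlap, and *Klrc1* was 4.96-fold lower (−2.31 ± 0.247, adjusted *P* = 6.54e-05). *Klre1* was at 0.341, 0.556 and 0.408 CPM against 5.65, 6.98 and 7.84 CPM, 15.8-fold lower. The Ly49 gene *Klra6* was at 1.19, 0.5 and 0.758 CPM against 7.16, 7.45 and 9.09 CPM, 9.49-fold lower, and *Klra7* at 0.511, 0.389 and 0.846 CPM against 2.66, 3.78 and 3.95 CPM, 5.66-fold lower. All of these were separated between groups, with adjusted *P* of 3.35e-06, 0.000136 and 0.0022. Ly49 genes are near-identical to each other in places, so the share of reads assigned to each is uncertain. *Klrc2*, the activating counterpart of *Klrc1*, was at 0, 0 and 0.0292 CPM, at most 1 count, against 0.737, 1.89 and 0.722 CPM, so no fold is given. *Klrk1*, which encodes NKG2D (1.66, 1.11 and 1.63 CPM against 3.97, 5.56 and 4.04 CPM, −1.61), lost its call without B6 CD8+ replicate 1 or 2 or any CD8.2 sample (adjusted *P* 0.0589 to 0.123), and *Klra4* (−1.38) without B6 CD8+ replicate 2 or 3 or any CD8.2 sample (0.103 to 0.134). *Klrd1*, whose product CD94 pairs with the NKG2 chains, was at 117, 120 and 119 CPM against 139, 158 and 178 CPM, separated but not called (−0.42, adjusted *P* = 0.0848). *Klrd1* was called by the DESeq2 Wald test (0.0461), by limma voom (0.0277), without the filter (0.000703), with only the 6 samples (0.00353) and without CD8.1 replicate 1 (0.00416) or 3 (0.0398). The cluster lies on chromosome 6 together with the altered *Cd4* locus. Within 10 Mb of *Cd4*, 162 genes were tested, 4 were higher and 12 lower, 9.88% in all against 7.92% of the other genes. The 6 called genes with the largest fold change there were *Klrc2*, *Klre1*, *Clec7a*, *Klra6*, *Cd4* and *Klra7*. *Clec7a*, the β-glucan receptor gene of myeloid cells, was at 0.383, 0.833 and 0.233 CPM in CD8.2 and 0, 0.0364 and 0.0481 CPM in B6 CD8+ T cells, at most 1 count in the latter, and its call was lost without B6 CD8+ replicate 1 or 2 or CD8.2 replicate 2 (adjusted *P* 0.0537 to 0.0578).

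Of 15 chemokine receptor genes tested of 23, 3 were higher and 3 lower, against 3.29% and 4.66% of all tested genes. Their median log2 difference was 0.52. That median was 0.30 without CD8.2 replicate 2, 0.29 without replicate 3, 0.31 with a mean of at least 1 CPM or with only the 6 samples, and 0.32 without the filter, which gave 6 higher. Among the lower genes were those of the inflammatory receptors CCR2 and CXCR6. *Ccr2* was at 2.68, 3.11 and 2.51 CPM in CD8.2 and 11.1, 10.6 and 17.4 CPM in B6 CD8+ T cells, 4.73-fold lower (−2.24 ± 0.311, adjusted *P* = 0.000555). *Cxcr6* was at 174, 194 and 194 CPM against 260, 279 and 290 CPM, 1.48-fold lower (−0.56 ± 0.121, adjusted *P* = 0.0114), and lost its call without B6 CD8+ replicate 2 (adjusted *P* = 0.0532) or CD8.2 replicate 1 (0.0616). Neither gene overlapped between groups, and *Cxcr6* shares bases with *Fyco1* on the other strand. Higher were *Ccr9*, *Cxcr5* and *Ccr7*. *Ccr9*, the receptor for CCL25 of thymus and small intestine, was at 382, 396 and 378 CPM in CD8.2 and 202, 215 and 193 CPM in B6 CD8+ T cells. The groups did not overlap, and *Ccr9* was 1.89-fold higher (0.92 ± 0.218, adjusted *P* = 0.0186). It lost its call by the DESeq2 Wald test (adjusted *P* = 0.0575) and without any 1 of the 6 samples (0.0528 to 0.0696), and it overlaps genes on both strands. *Cxcr5*, the receptor for entry to B cell follicles, was at 45.4, 52.6 and 47.4 CPM against 28, 27.2 and 30.4 CPM (0.76 ± 0.0874, adjusted *P* = 0.000129). *Ccr7*, the receptor for entry to the T cell zone, was at 640, 679 and 687 CPM against 568, 543 and 503 CPM (0.31, adjusted *P* = 0.00959; 0.0571 without CD8.2 replicate 3). *Cxcr5* and *Ccr7* had no overlap.

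Among 26 tested of 28 genes of LN entry, egress and integrins, 3 were higher and 3 lower (3.29% and 4.66% over all genes), with a median log2 difference of 0.00. *Itgae* encodes CD103, the integrin chain that binds E-cadherin on epithelium (ENSMUSG00000005947.11, chromosome 11, bases 73090583 to 73147446). It was at 102, 99.2 and 101 CPM in CD8.2 and 234, 240 and 264 CPM in B6 CD8+ T cells. The CD8.2 samples were nearly equal, far under every B6 sample, and *Itgae* was 2.44-fold lower (−1.29 ± 0.127, adjusted *P* = 3.67e-05). *Haspin* lies within it on the other strand, so part of its reads may be assigned wrongly. *Gpr15*, a homing receptor for the large intestine, was at 0.766, 0.722 and 0.933 CPM against 5.04, 6 and 4.52 CPM, 6.3-fold lower (adjusted *P* = 3.24e-05), and overlaps *Cpox* on the other strand. *Itgal*, the α-chain of LFA-1, was at 539, 594 and 533 CPM against 615, 666 and 714 CPM, lower by less (−0.26, adjusted *P* = 0.0363). Besides *Ccr7*, the integrin gene *Itga6* (121, 119 and 135 CPM against 94.2, 92.2 and 90 CPM, 0.44, adjusted *P* = 0.00184) and the oxysterol receptor gene *Gpr183* (64.4, 84.2 and 79.8 CPM against 57.9, 62 and 46.3 CPM, 0.46, adjusted *P* = 0.0212) were higher. *Itgal* lost its call without B6 CD8+ replicate 2 or 3 or CD8.2 replicate 1 or 3 (adjusted *P* 0.0962 to 0.16) and without the filter on low counts (0.0524), and *Gpr183* without B6 CD8+ replicate 1 or 3 or CD8.2 replicate 2 or 3 (0.0582 to 0.107). Without CD8.2 replicate 3, 1 gene of this list was higher, and with only the 6 samples 4 were higher and 5 lower. *S1pr1*, the receptor by which cells leave LNs, was not called (0.08, adjusted *P* = 0.601).

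All 16 checkpoint receptor genes in the table were tested, 2 were higher and 2 lower (all tested genes: 3.29% and 4.66%), with a median log2 difference of 0.16. The median was 0.08 without B6 CD8+ replicate 1 or with a mean of at least 1 CPM, 0.09 with only the 6 samples and 0.24 without B6 CD8+ replicate 3. *Lag3* encodes an inhibitory receptor for MHC class II (ENSMUSG00000030124.2, chromosome 6, bases 124904361 to 124911705). It was at 6.13, 8.06 and 5.1 CPM in CD8.2 and 2.7, 2.18 and 2.12 CPM in B6 CD8+ T cells. The groups did not overlap, and *Lag3* was 2.72-fold higher (1.44 ± 0.184, adjusted *P* = 0.000277). It is a neighbor of the altered *Cd4* locus, which spans bases 124864692 to 124888221 of the same chromosome. *Ctla4*, the inhibitory receptor for CD80 and CD86, was at 3.45, 4.45 and 4.23 CPM against 1.11, 1.31 and 1.06 CPM, 3.45-fold higher (1.79 ± 0.261, adjusted *P* = 0.000763). *Tigit*, the receptor for CD155, was at 0.809, 1.89 and 1.37 CPM against 3.89, 3.49 and 5.15 CPM, 3.11-fold lower (adjusted *P* = 0.0068), and *Cd160*, a receptor for HVEM, at 15.8, 15.4 and 16.2 CPM against 26.5, 29.1 and 42 CPM, 2.05-fold lower (adjusted *P* = 0.00317). Neither pair of groups overlapped. Without CD8.1 replicate 1 or with only the 6 samples, 4 checkpoint genes were higher. *Ctla4* and *Foxp3*, which encodes the factor of regulatory T cells, also belong to the 4 regulatory T cell markers, which summed to 7.62, 10.5 and 10.3 CPM in CD8.2 and 5.24, 6.18 and 9.67 CPM in B6 CD8+ T cells. Over all 12 samples *Foxp3* was the most abundant of the 4, but it was below *Ctla4* in each of the 6 samples compared. *Foxp3* was at 0.809, 1.44 and 1.46 CPM against 0.287, 0.182 and 0.529 CPM (1.96, adjusted *P* = 0.019), and lost its call by limma voom (adjusted *P* = 0.141) and without B6 CD8+ replicate 1 or 2 or CD8.2 replicate 2 or 3 (0.059 to 0.101). What such cells add to *Ctla4* was not tested.

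Among genes that report TCR signal strength and early responses, 38 of 40 were tested, 5 were higher and 2 lower (median log2 difference 0.03), against 3.29% and 4.66% of all tested genes. Of 35 proximal TCR signaling genes 2 were lower (median −0.04) and 0 higher by edgeR, with 10 at an unadjusted *P* under 0.05. Over all 13118 genes tested, 1466 higher and 1642 lower ones reached that unadjusted *P*. Calls of higher and lower proximal genes were 0 and 2 by limma voom and 0 and 4 by the DESeq2 Wald test. Besides *Irf4*, the higher genes were *Ier5* (183, 193 and 202 CPM against 138, 139 and 141 CPM, 0.47, adjusted *P* = 0.00099), the costimulatory receptor gene *Cd28* (23.9, 31.3 and 28.8 CPM against 15.7, 17.6 and 20.3 CPM, 0.65, adjusted *P* = 0.00531), the NF-κB inhibitor gene *Nfkbia* (142, 149 and 145 CPM against 113, 116 and 116 CPM, 0.34, adjusted *P* = 0.00896) and the MAP kinase phosphatase gene *Dusp1* (0.73, adjusted *P* = 0.0335). The lower genes were *Cd6*, a scavenger receptor that restrains TCR signals (210, 200 and 202 CPM against 292, 282 and 283 CPM, −0.49, adjusted *P* = 0.00107), the phosphatase gene *Ubash3b* (−0.41, adjusted *P* = 0.0217) and *Rasgrp1*, which couples the TCR to Ras (−0.22, adjusted *P* = 0.0366). *Cd5*, whose surface level follows the strength of selecting signals, was at 207, 185 and 200 CPM against 237, 235 and 252 CPM. The *Cd5* groups did not overlap, and it fell short of the threshold (−0.29, adjusted *P* = 0.0571). It was called in 8 of 21 alternatives: by the DESeq2 Wald test (adjusted *P* = 0.0213), with a mean of at least 1 CPM (0.0494), without the filter (0.0255), with only the 6 samples (0.00479) and without B6 CD4+ replicate 1 (0.0497) or 3 (0.0404) or CD8.1 replicate 1 (0.00822) or 3 (0.0402). *Nfkbia* lost its call without CD8.2 replicate 2 (adjusted *P* = 0.0514), *Dusp1* by limma voom (0.0545) and without B6 CD8+ replicate 1 or 3 or any CD8.2 sample (0.0687 to 0.142), *Ubash3b* without B6 CD8+ replicate 3 or any CD8.2 sample (0.0608 to 0.0832), and *Rasgrp1* without any 1 of the 6 samples (0.0752 to 0.14) or the filter on low counts (0.16). Among signal genes, 3 were higher without CD8.2 replicate 2, and 1 was lower without B6 CD8+ replicate 3 or CD8.2 replicate 3. By the DESeq2 Wald test or without CD8.1 replicate 1, 4 signal genes were lower. Among proximal genes, 1 was lower without any 1 of the 6 samples, 4 without CD8.1 replicate 1 or B6 CD4+ replicate 1 or 3, while 1 was higher without B6 CD8+ replicate 3 and 2 without CD8.1 replicate 1. With only the 6 samples in the fit, 10 signal genes were higher and 6 lower, and 2 proximal genes higher and 8 lower; without the filter these were 8 and 6, and 1 and 4.

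Genes of naive and quiescent T cells showed no common direction. Of 32 tested, 4 were higher and 3 lower, against 3.29% and 4.66% of all tested genes. The median log2 difference was −0.01 (−0.08 without B6 CD8+ replicate 3). *Igfbp4*, which binds insulin-like growth factors and marks naive CD8+ T cells, was at 281, 286 and 306 CPM in CD8.2 and 568, 521 and 452 CPM in B6 CD8+ T cells (−0.82 ± 0.0889, adjusted *P* = 7.47e-05). *Dapl1* was at 104, 95.2 and 106 CPM against 175, 174 and 167 CPM (−0.76 ± 0.122, adjusted *P* = 0.00159). *Klf6*, a zinc finger factor, was at 118, 120 and 124 CPM against 79.8, 89.3 and 73.2 CPM (0.58 ± 0.103, adjusted *P* = 0.00347). These groups did not overlap. *Myb*, a factor of immature and stem-like cells (12.1, 14.1 and 13.5 CPM against 5.65, 7.71 and 10.3 CPM), was higher (0.75, adjusted *P* = 0.0159), and lost its call without B6 CD8+ replicate 1 or 2 or CD8.2 replicate 2 or 3 (adjusted *P* 0.061 to 0.0695). *Foxp1*, which keeps T cells quiescent, was lower (−0.35, adjusted *P* = 0.0442), with the call lost without B6 CD8+ replicate 1 or 2, B6 CD4+ replicate 2 or any CD8.2 sample (0.0612 to 0.165) and with a replicate block (0.0738). *Tcf7*, which encodes TCF1, was not called (1160, 1120 and 1130 CPM against 1250, 1260 and 1110 CPM, −0.08, adjusted *P* = 0.638). Among the lineage choice factors, 23 tested, *Myb*, *Zbtb7b* and *Foxp3* were higher and *Hivep3* lower (−0.70, adjusted *P* = 0.0221). All tested genes gave 3.29% higher and 4.66% lower. The *Hivep3* call was lost without B6 CD8+ replicate 1 or 3 or any CD8.2 sample (adjusted *P* 0.0523 to 0.0866). Of these factors, 0 were higher without B6 CD8+ replicate 2 or CD8.2 replicate 2, 1 without B6 CD8+ replicate 1 or CD8.2 replicate 3 and 6 without CD8.1 replicate 1, where 3 were lower, as were 2 without B6 CD4+ replicate 1 or 3 or CD8.1 replicate 3. Of the naive genes, 2 were higher without B6 CD8+ replicate 1 or 2 or CD8.2 replicate 2, and 1 without CD8.2 replicate 3. Without the filter 7 naive genes were higher and 4 lower, and with only the 6 samples 7 and 5. For the lineage choice factors these were 5 and 2, and 6 and 4, and limma voom called 1 higher and 2 lower.

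*Bcl2* stood out among survival genes. It encodes the inhibitor of apoptosis that CD122 signals maintain in memory cells (ENSMUSG00000057329.7, chromosome 1, bases 106538178 to 106714274), and it was at 99.4, 101 and 96.4 CPM in CD8.2 and 163, 167 and 170 CPM in B6 CD8+ T cells. Both groups were tight, and *Bcl2* was 1.68-fold lower (−0.75 ± 0.107, adjusted *P* = 0.00065). Short genes overlap it on both strands. Of the 19 tested of 22 BCL2 family genes, the proapoptotic *Bbc3* (17, 20.3 and 17.1 CPM against 25.6, 28.7 and 28.7 CPM, −0.62, adjusted *P* = 0.0499) was also lower and *Bnip3l* (170, 167 and 176 CPM against 131, 133 and 142 CPM, 0.34, adjusted *P* = 0.0456) higher, with a median of −0.09 for the list (−0.14 without B6 CD8+ replicate 3, −0.02 without the filter). Both lost the call without any 1 of the 6 samples (adjusted *P* 0.0829 to 0.17 for *Bbc3*, 0.0892 to 0.187 for *Bnip3l*), *Bbc3* also without receptor segments (0.0501) and *Bnip3l* also without any B6 CD4+ sample (0.0647 to 0.0839) and with a replicate block (0.0624). Without CD8.1 replicate 1, 4 members were lower, and with only the 6 samples 2 were higher and 4 lower. By edgeR on all samples, 1 of the 19 was higher and 2 lower, against 3.29% and 4.66% of all tested genes. Of 40 cell cycle genes, 1 was higher and 2 lower (median −0.07), against 3.29% and 4.66% of all tested genes. The lower ones were 6 without the filter and 4 with only the 6 samples. The median turned to 0.25 without B6 CD8+ replicate 3, 0.02 without CD8.2 replicate 3 and 0.01 by limma voom, and was −0.21 without B6 CD8+ replicate 1, −0.16 without replicate 2 and −0.15 without CD8.2 replicate 2. The inhibitor gene *Cdkn1b* rose from 73, 72.7 and 74.6 CPM in B6 CD8+ to 97.7, 101 and 101 CPM in CD8.2 T cells (0.44 ± 0.0641, adjusted *P* = 0.000739). The kinase gene *Cdk6* fell from 26.4, 26.6 and 33.7 CPM to 12.9, 14.7 and 15.8 CPM (−0.99 ± 0.144, adjusted *P* = 0.000742), and the cyclin gene *Ccnd3* from 200, 197 and 189 CPM to 142, 155 and 147 CPM (−0.40, adjusted *P* = 0.00201). All 3 were separated. *Mki67*, a marker of cycling cells, was at 4.98, 4.83 and 2.36 CPM in CD8.2 and 4.54, 5.16 and 22.7 CPM in B6 CD8+ T cells, so that B6 CD8+ replicate 3 alone was high, and it was not called (adjusted *P* = 0.0965; 2.16e-13 without the filter on low counts). Without that sample, 2 cell cycle genes were higher.

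Interferon-stimulated genes were mixed. Of 69 tested of 71, 6 were higher and 12 lower, next to 3.29% and 4.66% of all genes, with a median log2 difference of −0.14 (−0.05 without B6 CD8+ replicate 3). *Iigp1*, an interferon-γ-induced GTPase (ENSMUSG00000054072.11, chromosome 18, bases 60376027 to 60392634), was at 36.4, 33.6 and 32.5 CPM in CD8.2 and 12.5, 12.7 and 13.3 CPM in B6 CD8+ T cells. The groups lay far apart and each was tight, and *Iigp1* was 2.66-fold higher (1.41 ± 0.145, adjusted *P* = 4.98e-05). *Ifi44* was at 1.75, 1.83 and 2.13 CPM against 0.328, 0.691 and 0.914 CPM, 2.99-fold higher (adjusted *P* = 0.00876). The guanylate-binding *Gbp8* (0.48, adjusted *P* = 0.0056) and *Ifit1bl1* (0.51, adjusted *P* = 0.0117) were higher as well, and so was the factor gene *Irf1* (269, 267 and 284 CPM against 226, 210 and 231 CPM, 0.30, adjusted *P* = 0.0203). On the lower side, *Eif2ak2*, which encodes the double-stranded RNA sensor PKR, was at 18.4, 14.6 and 15.3 CPM against 28.1, 28 and 36.3 CPM (−0.93 ± 0.115, adjusted *P* = 0.000236). *Slfn5* was at 61.8, 58.2 and 53.2 CPM against 89.8, 88.4 and 86.7 CPM (−0.61 ± 0.0749, adjusted *P* = 0.000236). *Oas2*, an enzyme that activates RNase L, was at 0.979, 1.22 and 1.25 CPM against 2.62, 2.87 and 3.9 CPM (−1.43, adjusted *P* = 0.00236). *Irf7*, the amplifier of type I interferon, was at 47.9, 52.2 and 44.5 CPM against 62.9, 67 and 88.2 CPM (−0.59, adjusted *P* = 0.0366). These genes had no overlap between groups. The list had 4 lower members without B6 CD8+ replicate 3 or CD8.2 replicate 3, 6 without CD8.2 replicate 1 and 7 without B6 CD8+ replicate 2, and it had 3 higher members without B6 CD8+ replicate 1 or 2 or CD8.2 replicate 3, 4 without CD8.2 replicate 1 or 2, 9 without B6 CD8+ replicate 3 and 10 without CD8.1 replicate 1. A fit of only the 6 samples gave 14 higher and 24 lower, and without the filter there were 10 and 22. Calls were lost for *Ifit1bl1* without B6 CD8+ replicate 1 or 2 or CD8.2 replicate 3 (adjusted *P* 0.0553 to 0.0784), for *Irf1* without B6 CD8+ replicate 1 or 2 or any CD8.2 sample (0.0525 to 0.118), and for *Irf7* without B6 CD8+ replicate 2 or 3 or any CD8.2 sample (0.0642 to 0.144) and with a replicate block (0.0511). Among 24 genes of MHC class I and antigen processing (median 0.09), the class I transactivator *Nlrc5* was at 104, 97.3 and 98.6 CPM against 143, 141 and 135 CPM (−0.49, adjusted *P* = 0.00229), and *H2-T24* was lower too (−0.59, adjusted *P* = 0.00247). The classical class I gene *H2-K1* was higher (3870, 3920 and 3820 CPM against 3290, 3250 and 2920 CPM, 0.30, adjusted *P* = 0.0235), with the call lost without any 1 of the 6 samples (0.0522 to 0.0962). In all, 1 of the 24 was higher and 2 lower, against 3.29% and 4.66% of all tested genes. Without CD8.1 replicate 1, 4 genes of this list were higher, without CD8.1 replicate 3 or B6 CD4+ replicate 3 or by the DESeq2 Wald test 2, without the filter 3 and with only the 6 samples 8.

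None of 78 nuclear-encoded respiratory chain genes (median −0.01) and none of 23 glycolysis genes (median 0.03) was called by edgeR, limma voom or the DESeq2 Wald test, with 1 and 2 at an unadjusted *P* under 0.05; without CD8.1 replicate 1, 1 respiratory chain gene was lower, and with only the 6 samples 2 were. The 13 transcripts of the mitochondrial genome summed to 17900, 31300 and 30200 CPM in CD8.2 and 27700, 32200 and 23600 CPM in B6 CD8+ T cells, with overlap and CD8.2 replicate 1 lowest. One of them, *mt-Nd3*, was called higher (0.77, adjusted *P* = 0.0445; lost without any 1 of the 6 samples, 0.0892 to 0.159, without B6 CD4+ replicate 3, 0.0559, and with a replicate block, 0.0556). The list of sterol and fatty acid synthesis genes, 28 tested, had 5 higher and 2 lower members and a median of 0.14 (0.09 without B6 CD8+ replicate 3). Over all tested genes, 3.29% were higher and 4.66% lower. *Sqle*, an enzyme of cholesterol synthesis, was at 8.3, 11.9 and 10.1 CPM against 4.67, 5.56 and 4.09 CPM (1.07 ± 0.16, adjusted *P* = 0.000917). The fatty acid synthesis genes *Fasn* (135, 152 and 145 CPM against 204, 194 and 241 CPM, −0.57, adjusted *P* = 0.00397) and *Acaca* were lower. *Sqle* and *Fasn* were separated and held their calls under every setting, whereas the call of *Acaca* was lost without B6 CD8+ replicate 2 or CD8.2 replicate 1 or 2, where 1 member was lower. Without B6 CD8+ replicate 2 or CD8.2 replicate 2, 2 members of the list were higher, and without any other of the 6 samples, CD8.1 replicate 2 or any B6 CD4+ sample 3 were, as by limma voom, against 8 with only the 6 samples. Of 83 tested of 85 cytosolic ribosomal protein genes, 7 were higher and 0 lower, next to 3.29% and 4.66% of all tested genes. By edgeR 38 had an unadjusted *P* under 0.05. Higher and lower calls were 13 and 0 by limma voom and 19 and 0 by the DESeq2 Wald test. A positive difference was found in 76, with a median of 0.18 that was also 0.18 with DESeq2's size factors. The 7 fell to 1 without B6 CD8+ replicate 1 or 3 or CD8.2 replicate 2 or 3, to 2 without B6 CD8+ replicate 2 and to 4 without B6 CD4+ replicate 1, and rose to 33 without CD8.1 replicate 1. A fit of only the 6 samples gave 42 higher and 1 lower, without the filter 16 and 1, and with a replicate block 11 were higher. *Rpl12* was at 6310, 6810 and 6860 CPM against 5260, 5530 and 5130 CPM, without overlap (0.33 ± 0.0696, adjusted *P* = 0.0105).

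Large folds were also found in genes outside the lists above. Higher in CD8.2 T cells were the inflammatory caspase genes *Casp1* and *Casp4*, neighbors on chromosome 9 from base 5298517 to 5336783. *Casp1* was at 7.36, 5.67 and 5.57 CPM in CD8.2 and 0.983, 1.67 and 0.818 CPM in B6 CD8+ T cells, 5.24-fold higher (2.39 ± 0.298, adjusted *P* = 0.000263). *Casp4* was at 2.13, 2.17 and 2.39 CPM against 0.491, 0.291 and 0.241 CPM, 6.43-fold higher (2.69 ± 0.336, adjusted *P* = 0.000263). Both were separated between groups. The secreted ligand gene *Wnt10a* was 6.26-fold higher, the transcript *AA465934* 5.42-fold, the folate enzyme gene *Aldh1l1* 4.67-fold, the kinase gene *Nuak2* 3.61-fold, the glycosyltransferase gene *Pomgnt2* 3.54-fold and the prohormone convertase gene *Pcsk1* 3.19-fold. *Wnt10a* had at most 13 counts in any B6 CD8+ sample. *Gm6189*, a processed pseudogene, was 4.73-fold higher, and its reads may belong to its parent gene. *Jchain*, the joining chain of secreted antibodies, was at 1.66, 2.22 and 2.13 CPM against 0.368, 0.291 and 0.144 CPM, 7.21-fold higher, and *Lyz2*, lysozyme of myeloid cells, at 7.19, 16.2 and 6.5 CPM against 1.39, 1.53 and 3.99 CPM, 4.35-fold higher. Lower in CD8.2 T cells, *Cd163l1* was at 0.426, 0.333 and 0.467 CPM against 9.66, 8.8 and 12.5 CPM, 24.3-fold lower (−4.60 ± 0.465, adjusted *P* = 4.53e-05). *5830411N06Rik*, its neighbor on chromosome 7, was at 1.7, 2.56 and 1.6 CPM against 11.1, 12.9 and 29.2 CPM, 9.22-fold lower (adjusted *P* = 0.000217). Both encode scavenger receptors known from γδ T cells, and neither overlapped. *Coro2a*, an actin-binding coronin, was at 7.07, 4.67 and 8.08 CPM against 52, 43.3 and 34.4 CPM, 6.43-fold lower (−2.68 ± 0.168, adjusted *P* = 5.1e-07). *2900026A02Rik* was at 1.11, 1.11 and 1.22 CPM against 13, 15.8 and 18.2 CPM, 13.5-fold lower. The hormone gene *Stc2* was 15.7-fold, the scaffold gene *Dlg5* 12.1-fold, the phospholipase gene *Plce1* 9.56-fold, the guanine exchange factor gene *Plekhg3* 7.69-fold and *Gas7* 6.8-fold lower. The highest count in any CD8.2 sample was 6 for *Stc2*, 13 for *Dlg5*, 9 for *Plce1*, 29 for *Plekhg3* and 49 for *Gas7*. These genes met the naming rule by their B6 CD8+ level, and the folds of *Stc2*, *Dlg5* and *Plce1* rest on few CD8.2 reads. The genes with large folds named here all had groups without overlap, by the way they were chosen. Genes on the other strand overlap *2900026A02Rik*, *Plce1*, *Plekhg3*, *Gas7*, *Coro2a*, *Pomgnt2* and *Aldh1l1*.

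The strain difference of the cytotoxic lineage was set beside that of the helper lineage, CD8.1 against B6 CD4+ T cells, which uses the other 6 samples. In the helper lineage 911 genes (6.94%) were higher and 763 (5.82%) lower in CD8 Dual mice. Of the genes higher in CD8.2 T cells, 153 were also higher in CD8.1 T cells, 35.5% of the cytotoxic and 16.8% of the helper list, and of the lower genes 224 were lower in both, 36.7% and 29.4%. The opposite calls were unequal, with 54 genes lower in CD8.2 and higher in CD8.1 (8.84% and 5.93%) and 2 the other way (0.464% and 0.262%). Tested as an interaction over all genes, the strain difference was lower in the cytotoxic than in the helper lineage for 207 genes (1.58%) and higher for 38 (0.29%). Of the 611 genes lower in CD8.2, 107 had such an interaction, and 53 of these were not called in the helper lineage while 54 were called the opposite way. Of the 431 higher genes, 17 did. This balance depended on CD8.1 replicate 1, without which 718 genes were lower and 638 higher. Among memory phenotype genes 21 of 40 had an interaction, and in the helper lineage 23 were higher and 2 lower in CD8 Dual mice. *Il2rb* differed by −0.58 in the cytotoxic and 1.35 in the helper lineage (interaction adjusted *P* = 4.78e-07), *Ly6c2* by −0.91 and 2.04 (3.93e-07), *Itgae* by −1.29 and 2.65 (1.91e-08), *Ccl5* by −2.27 and 1.20 (1.36e-06), *Cxcr6* by −0.56 and 2.11 (2.26e-06) and *Gpr15* by −2.66 and 2.92 (2.77e-07). For *Gzmm*, −2.16 stood beside 0.29 (adjusted *P* = 0.000678). *Tbx21* differed by −1.18 and −0.04, an interaction that was not called (adjusted *P* = 0.0521). No interaction was called for *Bcl2* (−0.75 and −0.47, adjusted *P* = 0.439), *Eif2ak2* (−0.93 and −0.93, 0.995), *Il6ra* (−0.61 and −0.97, 0.353), *Ctla4* (1.79 and 1.42, 0.669), *Casp1* (2.39 and 1.66, 0.471) or *Ccr9* (0.92 and 1.94, 0.181), each of which was called in both lineages in the same direction. *Lag3* (1.44 and 0.20, adjusted *P* = 0.0131) and *Iigp1* (1.41 and 0.30, 0.00637) were higher to a greater extent in the cytotoxic lineage.

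**Figure D3:**
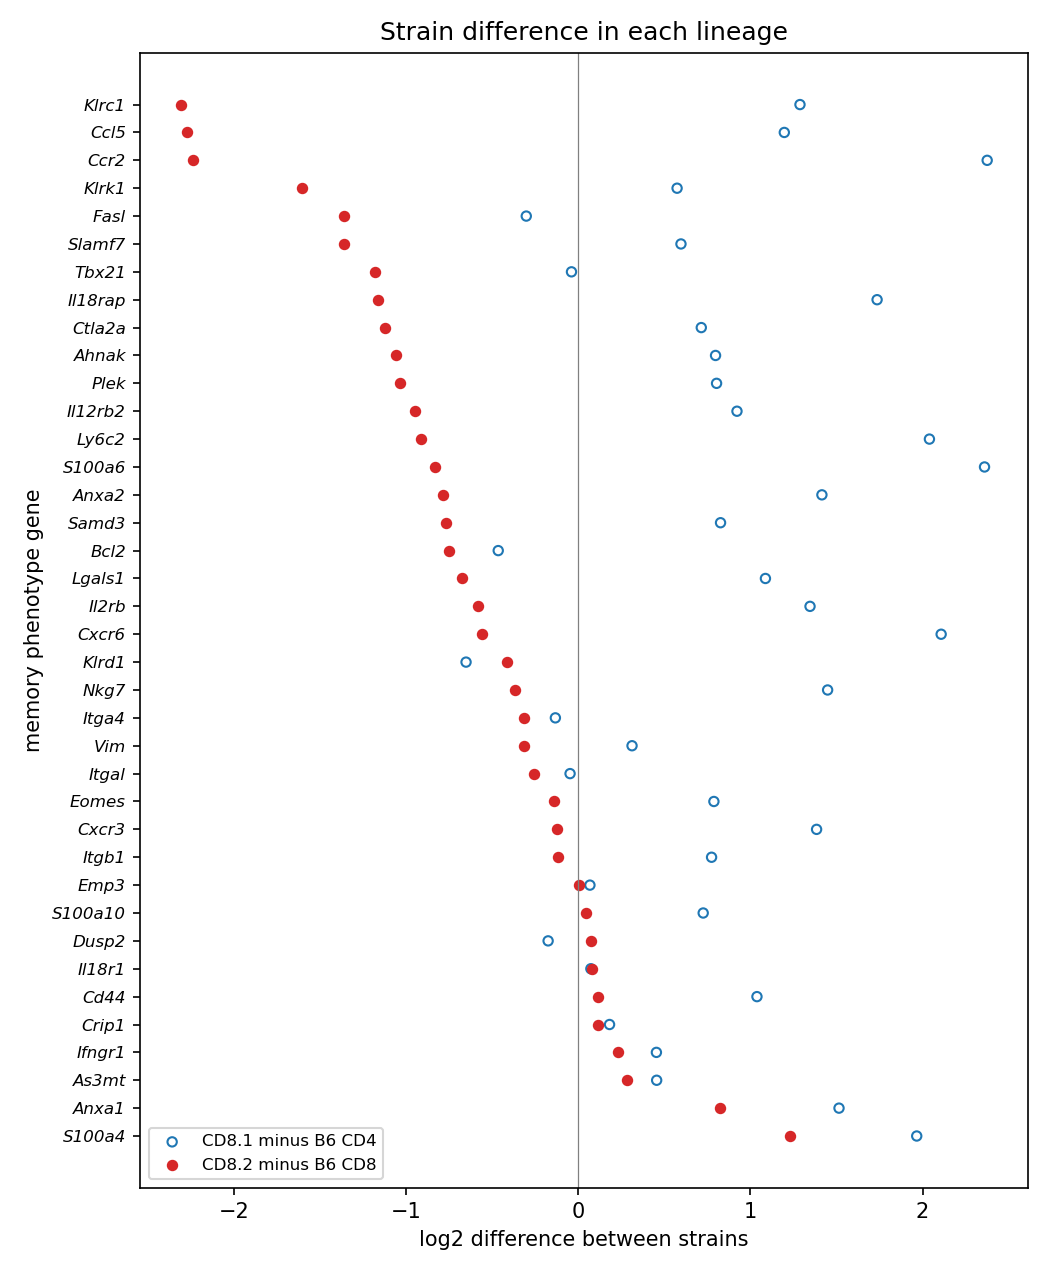
Log2 difference between strains of memory phenotype genes in the cytotoxic lineage (CD8.2 minus B6 CD8+, filled red) and the helper lineage (CD8.1 minus B6 CD4+, open blue), with 2 members, 1 of them *Klrc2*, not drawn, ordered by the cytotoxic difference. In the upper part the points lie on opposite sides of 0 for most genes, for example *Ly6c2* at −0.91 and 2.04; *Tbx21*, *Fasl*, *Bcl2*, *Klrd1*, *Itga4* and *Itgal* are negative in both.

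Antigen receptor V segments report which receptors the cells carry. Of 35 TRBV segments 22 were tested, 5 were higher and 1 lower (median log2 difference 0.11; 0.00 without B6 CD8+ replicate 1, 0.23 without replicate 3, 0.01 without the filter). Of 128 TRAV segments 66 were tested, 5 were lower and 0 higher, where all tested genes gave 4.66% and 3.29% (median −0.10, and −0.17 without CD8.2 replicate 3). By edgeR 12 of the 66 had an unadjusted *P* under 0.05, against 1466 higher and 1642 lower of all 13118 tested genes. Limma voom and the DESeq2 Wald test called 0 TRAV segments higher, and 5 and 7 lower. *Trbv31* was at 26, 25.9 and 23.6 CPM in CD8.2 and 16.4, 17 and 15.8 CPM in B6 CD8+ T cells (0.62 ± 0.0918, adjusted *P* = 0.000913). *Trbv26* was at 21.8, 20.4 and 20.9 CPM against 13.8, 14.3 and 14 CPM (0.58 ± 0.107, adjusted *P* = 0.00413). Both were separated. *Trbv2* (0.39), *Trbv15* (0.42) and *Trbv3* (0.30) were higher and *Trbv17* (−0.41) lower. Calls were lost for *Trbv2* without CD8.2 replicate 2 (adjusted *P* = 0.0539), *Trbv15* without B6 CD8+ replicate 1 or 2 or any CD8.2 sample (0.0675 to 0.104), *Trbv17* without B6 CD8+ replicate 2 or CD8.2 replicate 1 or 3 (0.0586 to 0.0925) and *Trbv3* without any 1 of the 6 samples or B6 CD4+ replicate 2 (0.0611 to 0.165) and with a replicate block (0.0606). Without B6 CD8+ replicate 2 or CD8.2 replicate 2 or 3, 0 TRAV segments were lower, without each of the other 3 samples 2 were, and without CD8.1 replicate 1 or with only the 6 samples 8 were. Without B6 CD8+ replicate 1 or 2 or CD8.2 replicate 1 or 3, 3 TRBV segments were higher, and without CD8.2 replicate 2 2 were, against 8 with only the 6 samples. Related segments share sequence, so reads may be split between them.

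Markers of other cells were near the floor or overlapped, with exceptions. The 8 B cell markers summed to 721, 739 and 620 CPM in CD8.2 and 672, 684 and 656 CPM in B6 CD8+ T cells, with overlap, and most of this was *Ighm*. *Ms4a1*, which encodes CD20 (21.7, 23.8 and 11.4 CPM against 8.47, 6.25 and 7.02 CPM, 1.37, adjusted *P* = 0.00845), *Igkc* (49.8, 52.7 and 25.2 CPM against 22.6, 21.9 and 18.5 CPM, 1.01, adjusted *P* = 0.0174) and *Cd79a* (28.3, 31.6 and 13.3 CPM against 14.1, 11.2 and 11.9 CPM, 0.96, adjusted *P* = 0.0302) were higher, with CD8.2 replicate 3 under the other CD8.2 samples in each and with overlap for *Cd79a*. Calls were lost for *Ms4a1* without B6 CD8+ replicate 2 (adjusted *P* = 0.0593), and for *Igkc* (0.0525 to 0.0898) and *Cd79a* (0.0651 to 0.141) without any B6 CD8+ sample or CD8.2 replicate 1 or 2, for *Cd79a* also by limma voom (0.0884). Without the filter 5 B cell markers were higher. *Jchain* and *Cxcr5* are also genes of B lineage cells. What such cells add to them was not tested. The 9 myeloid markers, 7 tested and 1 higher (*Lyz2*), summed to 84.4, 104 and 80.1 CPM against 79, 80.3 and 78 CPM, mostly *Cst3*, with *Cd14* and *Itgam* at 0 in all samples. Without CD8.2 replicate 3, without the filter or by the DESeq2 Wald test, 2 were higher. Their part in *Lyz2*, *Casp1* and *Clec7a* was not tested. The 5 dendritic cell markers summed to 2.26, 2.94 and 1.81 CPM against 4.87, 5.74 and 4.52 CPM, of which *Itgax* (CD11c, also found on memory CD8+ T cells) was at 1.4, 1.33 and 0.817 CPM against 4.79, 5.09 and 3.8 CPM, 3.92-fold lower (−1.97 ± 0.311, adjusted *P* = 0.00129). The 5 γδ T cell markers summed to 9.75, 9.33 and 8.37 CPM against 9.29, 11.5 and 10.2 CPM, with overlap. Of these, *Tcrg-C1* was lower (0.383, 0.667 and 0.437 CPM against 0.983, 1.64 and 0.914 CPM, −1.29, adjusted *P* = 0.0363). Its call was lost without B6 CD8+ replicate 1 or 2 or any CD8.2 sample (adjusted *P* 0.0558 to 0.186). The part of γδ T cells in *Cd163l1* and *5830411N06Rik* was not tested. The 6 markers of NK cells and innate lymphoid cells summed to 3.41, 3.56 and 2.27 CPM against 3.77, 4.73 and 6.06 CPM, without overlap, with *Itga2* the most abundant and *Gata2* at 0. None of the 4 tested was called by edgeR, limma voom or the DESeq2 Wald test, 2 had an unadjusted *P* under 0.05, 1 was lower without CD8.2 replicate 1, without the filter or with only the 6 samples, and their part in the killer lectin-like receptors was not tested. Erythroid and platelet markers summed to 2.81, 2.06 and 2.8 CPM against 0.573, 5.45 and 14 CPM, mostly *Hbb-bs*, with B6 CD8+ replicate 3 highest, and the NKT cell marker *Zbtb16* had 1 count in the 6 samples.

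Promoters of the called members of the effector factor, memory and granule lists were searched on both strands for AGGTGT (T-box core), TGTGGT (Runx core) and TTCNNNGAA (STAT, with N any base). Of the 33 called members of the 3 lists, 23 had a promoter of 300 bases in the RefSeq table (GRCm38.p6), taken around the start nearest to the annotated start of the gene. Among the members without an entry were *Ccl4*, *Ccl5*, *Ctsw*, *Ikzf3*, *Il2rb*, *Itgal*, *Lgals1*, *Unc13d* and *Zfp683*. Of the 21 promoters of lower genes, 1 (4.76%, *Samd3*) held AGGTGT, 9 (42.9%) TGTGGT and 2 (9.52%) TTCNNNGAA, against 13.7%, 16.8% and 8.3% of all 32851 promoters of the table, several of which can belong to 1 gene. The 9 were those of *Cxcr6*, *Gzmm*, *Il18rap*, *Klrc1*, *Klrc2*, *Klrk1*, *Ly6c2*, *S100a6* and *Xcl1*, of which the lectin-like receptor genes are related to each other. Neither *Irf4* nor *Prdm1*, the higher genes, held any of the 3. A match describes letters in this window, and no binding was measured. Promoters of expressed genes or of uncalled list members were not taken as a separate background. The shares therefore cannot set the lower genes apart from those. The promoters of the markers *Tbx21* (chr11:97115282-97115581, minus strand) and *Ly6c2* (chr15:75111922-75112221, minus strand) and of *Gzmm* (chr10:79688770-79689069, plus strand) are printed 5′ to 3′, with matches to any of the motifs in capitals; *Tbx21* had none.
*Tbx21*: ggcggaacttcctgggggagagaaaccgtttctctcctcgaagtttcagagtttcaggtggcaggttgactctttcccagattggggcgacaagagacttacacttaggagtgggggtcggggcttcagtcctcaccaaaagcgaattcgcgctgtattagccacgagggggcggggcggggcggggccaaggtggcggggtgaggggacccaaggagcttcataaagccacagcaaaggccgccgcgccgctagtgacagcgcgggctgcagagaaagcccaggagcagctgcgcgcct
*Ly6c2*: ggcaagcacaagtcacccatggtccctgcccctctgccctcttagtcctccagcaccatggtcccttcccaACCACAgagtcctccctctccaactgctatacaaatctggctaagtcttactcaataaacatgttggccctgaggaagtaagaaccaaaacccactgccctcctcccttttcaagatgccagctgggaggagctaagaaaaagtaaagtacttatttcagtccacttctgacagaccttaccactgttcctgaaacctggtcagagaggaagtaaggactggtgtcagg
*Gzmm*: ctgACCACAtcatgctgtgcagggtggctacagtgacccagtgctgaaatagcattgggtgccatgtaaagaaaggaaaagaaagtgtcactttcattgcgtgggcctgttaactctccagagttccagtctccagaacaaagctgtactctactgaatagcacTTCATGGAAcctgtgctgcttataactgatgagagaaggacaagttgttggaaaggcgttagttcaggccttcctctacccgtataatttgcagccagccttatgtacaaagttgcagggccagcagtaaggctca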

How the data were processed

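All 12 samples of sorted LN T cells entered the fit. Per the submitters' processing notes, reads were aligned to mm10 with STAR and quantified with RSEM, and the authors deposited the gene counts used here; the notes also name limma, and give no versions. Counts of all 12 samples were fitted with edgeR 4.0.16 (quasi-likelihood, TMM, filterByExpr by group, R 4.3.3), with Benjamini-Hochberg adjustment over the 13118 genes tested of 49585. The common biological coefficient of variation was 11.2%. Interactions were contrasts of the same fit. SE is the log2 difference divided by the root of *F*. Gene positions and overlaps are those of GENCODE M21 (GRCm38).

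The members and the gene lists were chosen with earlier results of these data known. Genes were named by rule: the markers *Tbx21*, *Ly6c2* and *Il2rb*; list members, called ones first; in each direction the 12 largest folds with an adjusted *P* under 0.05, no overlap and a higher group mean of at least 2 CPM; and within 10 Mb of *Cd4* the 6 largest called. Some list members enter the list totals but are not reported by name here.

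Alternatives were DESeq2 1.42.0 (Wald test; size factors), limma 3.58.1 voom, no filter, a mean of 1 CPM, a replicate block, no receptor segments, no *Gm42418*, only the 6 samples compared, stricter folds and each sample left out. The procedure was tested on simulated data. Tables and figures used Python 3.11.15, pandas 2.3.3, numpy 2.4.6 and matplotlib 3.10.9. Total counts per sample ranged from 18667474 to 37110502 in the compared samples.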

Additional observations from a re-analysis of the deposited data

Results flagged for a closer look

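For the genes below, the strain difference (CD8 Dual minus B6) differed between the cytotoxic and the helper lineage by interaction test over all genes (edgeR, adjusted *P* under 0.05). Each value is the log2 difference of the cytotoxic lineage minus that of the helper lineage.

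Among markers, transcription factors and effector molecules, values were negative for *Ly6c2* (−2.95), *Il2rb* (−1.93), *Zfp683* (−2.47), *Hopx* (−1.62), *Ccl5* (−3.47), *Gzmm* (−2.45), *Gzmb* (−3.45), *Xcl1* (−2.08), *Nkg7* (−1.81) and the STAT5 target *Cish* (−0.98). Homing receptors and integrins gave *Ccr2* (−4.62), *Cxcr6* (−2.67), *Cxcr5* (−0.57), *Cxcr3* (−1.51), *Itgae* (−3.93), *Gpr15* (−5.58) and *Cd44* (−0.92). Other memory and killer lectin-like genes gave *Klrc1* (−3.60), *Il18rap* (−2.90), *Ahnak* (−1.86), *Plek* (−1.84), *Slamf7* (−1.96), *Ctla2a* (−1.84), *Lgals1* (−1.76), *S100a6* (−3.19) and *Vim* (−0.62). *Klre1* was also negative, and B6 CD4+ T cells had at most 1 count of it, so the size of its fitted value (−6.67) is not reliable.

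Checkpoint, cell cycle and interferon-stimulated genes gave *Tigit* (−3.40), *Cd160* (−1.90), *Cdk6* (−1.26), *Lag3* (1.24), *Iigp1* (1.12) and *Ifi44* (1.80). The co-receptor genes, which differ between lineages by the construction of the strain, gave *Cd4* (6.93), *Cd8a* (−7.31) and *Cd8b1* (−2.70). Receptor segments gave *Tcrg-C1* (−3.63), *Trbv31* (0.80), *Trbv26* (1.20), *Trbv3* (0.50) and *Trbv17* (−0.99). Of the genes with the largest folds, *Cd163l1* (−5.05), *Stc2* (−5.03), *2900026A02Rik* (−4.03), *Plce1* (−4.19), *5830411N06Rik* (−4.08), *Plekhg3* (−4.94) and *Coro2a* (−4.01) differed between lineages. In B6 CD4+ T cells *Klrc1*, *Stc2*, *Cd163l1*, *Plekhg3*, *Plce1* and *5830411N06Rik* were near the floor of 3 counts in at least 1 sample, so these values rest on few reads.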

How the results depend on the processing

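Of the 146 genes followed through the alternatives, 125 were called, and 73 of these were called in every setting in which they had a value. The other 52 lost the call in at least 1 setting, 17 of them in a setting other than a left-out sample, and 0 turned sign. Of the genes not called, *Eomes* turned to 0.08 without B6 CD8+ replicate 3 (−0.28 to 0.08 over left-out samples) and *Cd44* to −0.01 without B6 CD8+ replicate 1 (−0.01 to 0.24).

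With edgeR on all samples, 431 genes were higher, 611 lower, 41 and 35 were DEGs and 245 had an interaction. The DESeq2 Wald test gave 647 higher genes and 410 interactions, and the cause was not tested. Requiring a mean of 1 CPM left 14 higher and 21 lower DEGs, since fewer genes were tested. Without a filter on low counts there were 676 higher and 917 lower genes, 154 and 125 DEGs and 620 interactions; the cause was not tested. With only the CD8.2 and B6 CD8+ samples there were 1129 higher and 1386 lower genes and 13 higher DEGs; the cause was not tested. By construction, asking for more than 2-fold left 83 and 139 genes, and an adjusted *P* for DEGs left 22 higher ones.

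Leaving out 1 of the 12 samples at a time gave 163 to 907 higher genes, 246 to 1006 lower genes and 165 to 1356 interactions, the largest without CD8.1 replicate 1. A helper lineage sample left out was chosen as an alternative after seeing the data, as were list counts per setting. DESeq2's size factors, limma voom, leaving out receptor segments or *Gm42418* moved no count of higher or lower genes, DEGs or interactions by more than 1.5 times, whereas some list counts moved more, such as ribosomal protein genes, of which limma voom called 13 higher.

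Samples of the same replicate number in both groups did not deviate together (mean correlation −0.046, against 0.0231 for different numbers). With a replicate block, 382 genes were higher and 500 lower, and 211 had an interaction.

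Each group held 3 samples of pooled cells, and no label gives a batch. The strand of counting is not stated, so genes that overlap others are uncertain, and no protein was measured. Genes near the floor of 3 counts rest on few reads, and no fold was given for *Klrc2* and *Clec7a*.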
